A study of Mus musculus with 10 samples.

Results

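Chemokines are small secreted proteins that attract migrating cells along a gradient, and their receptors are membrane proteins that couple to G proteins in the cell that responds. The genes described here are the 53 of 12394 measured genes whose single array symbol is Ccl, Cxcl, Cx3cl, Xcl, Ccr, Cxcr, Cx3cr, Xcr or Ackr followed by a digit, 32 ligands and 21 receptors. They were compared on 10 Affymetrix mouse arrays of 1 colour, hybridised with 100 ng of RNA of a cell population sorted from mammary tissue (FVB/N strain). CAF (cancer-associated fibroblasts, 3 arrays), CSC (cancer stem cells, 2 arrays) and TEC (2 arrays) came from tumours of mice with the genotype label WAPCre-DNbcatn;HGF, called Wnt-Met tumours in the series title. COF, the fibroblasts of control glands, came from mice labelled WT (3 arrays) and have none of the alleles that the 3 tumour groups share in their labels. The genotype label names a Cre driven by the promoter of Wap, a milk protein gene of the mammary epithelium. A label of the TEC samples reads TEFs where the title reads TEC. Age, the sorting markers and whether the arrays of a group came from separate mice are not given in the sources used here, so p-values measure only the spread between these arrays.

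In a mammary tumour, chemokines of the CXC kind with an ELR motif attract neutrophils through Cxcr2, monocyte attractants such as Ccl2 act through Ccr2, and Cxcl12, made by stromal cells, acts on cells with Cxcr4. Most signalling receptors are known from leukocytes, whereas fibroblasts and epithelial cells are known chiefly as makers of ligands. The atypical receptors Ackr1 to Ackr4 bind or take up chemokines without the usual G protein signal.

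The fibroblast markers were high in CAF and COF, with a median over 12 genes of 13.27 to 13.39 on the log2 scale in CAF, 8.33 to 8.36 in CSC and 13.60 to 13.86 in COF. In TEC that median was 8.80 on replicate 1 and 11.42 on replicate 2, so the TEC arrays stood apart from each other in fibroblast genes. The 13 epithelial markers had a median of 6.72 to 7.10 in CAF, 12.20 and 12.03 on the CSC arrays, 9.36 and 10.08 in TEC and 6.15 to 6.25 in COF. For the 12 general leukocyte markers the median reached 6.33 to 7.64 in CAF, 10.03 and 10.68 on the CSC arrays, 12.61 and 13.01 on the TEC arrays, and 5.16 to 5.31 in COF. TEC thus had the highest leukocyte markers of the 4 groups and lower epithelial markers than CSC, and it is called by its label only. In such bulk samples, fewer cells of a type and less RNA per cell cannot be told apart.

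**Figure D1:**
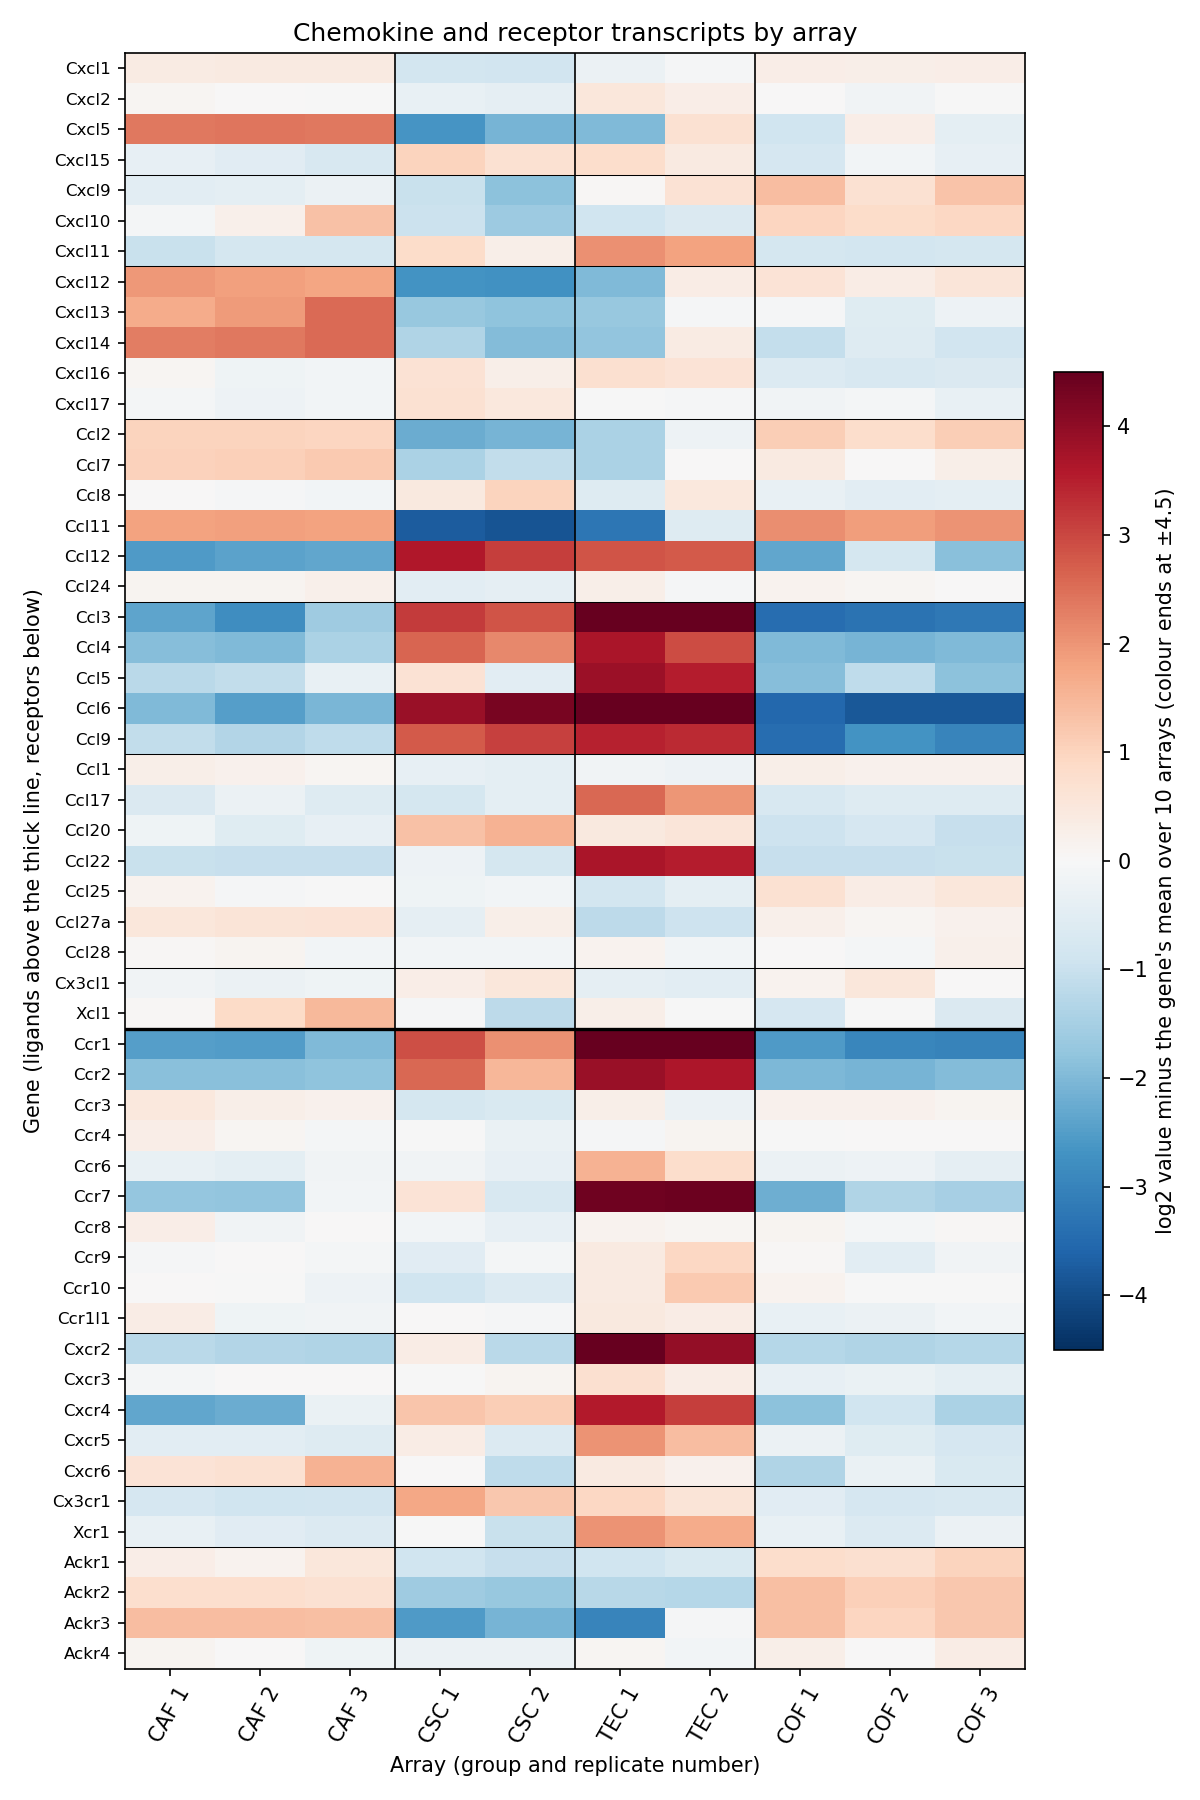
Log2 value of each of the 53 chemokine and receptor genes, by role down the page, on each of the 10 arrays, CAF, CSC, TEC and COF left to right. Colours give the value minus the mean of that gene over the 10 arrays, so they show differences between arrays and not levels between genes. Cxcl12, Cxcl5, Cxcl14 and Cxcl13 are highest in the 3 CAF arrays, and Ccl3, Ccl4, Ccl6, Ccl9, Ccr1 and Ccr2 are highest in CSC and TEC.

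Ligands and receptors were distributed differently over the 4 populations. The highest group mean lay in CAF for 9 ligands, in CSC for 6, in TEC for 10 and in COF for 7. Of the 21 receptors, 13 had their highest mean in TEC, 4 in CAF, 1 in CSC and 3 in COF. No test was made of this difference, and the share of all genes with their highest mean in each group was not computed. The receptor probe sets were also weaker. The lower quartile of an array, used here as the mark of weak signal, was 5.05 to 5.26. The receptors Ccr3, Ccr4 and Ccr8, 3 members, lay under it on all 10 arrays, so their highest group rests on weak signal. Another 32 members, 25 ligands and 7 receptors, lay above it on all arrays. Without the dimmest 30% of all genes, 26 ligands and 9 receptors would remain.

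The first comparison asked how fibroblasts of the tumours differed from those of control glands. CAF had more of a group of CXC ligands, Cxcl14, Cxcl5, Cxcl13 and Cxcl12, more of the macrophage-type CC ligands Ccl9, Ccl6 and Ccl3, and less of the interferon-induced ligand Cxcl9. Of the 53 members 18 passed at an adjusted p under 0.05 (limma, Benjamini-Hochberg adjustment over all 12394 genes), which is 34% against 34.8% of all genes, so the family as a whole was not called more often than other genes. In CAF 13 were higher and 5 lower, where 18.1% of all genes were higher and 16.7% lower. Among the 32 ligands 11 were higher and 3 lower, and among the 21 receptors 2 were higher and 2 lower. The median difference was 0.10 for ligands, 0.02 for receptors and 0.02 for all genes. Differences are given here in log2 units with their standard error, and values of replicates in the order of their numbers.

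Cxcl14, an attractant of monocytes and dendritic cells that is made by epithelial and stromal cells, had the greatest difference of the family between the fibroblast groups. Its log2 values were 12.70, 12.76 and 12.94 in CAF, 9.06 and 8.46 in CSC, 8.63 and 10.79 in TEC, and 9.34, 9.81 and 9.55 in COF. Every CAF array lay above every other array, and CAF minus COF was 3.23 ± 0.45 (adjusted p = 0.000732), a 9.41-fold higher value. TEC replicate 2 read higher than the COF arrays, and TEC replicate 1 lower than them.

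Cxcl5, an ELR ligand of Cxcr2, read 13.27, 13.31 and 13.27 in CAF, 8.25 and 8.81 in CSC, 8.94 and 11.58 in TEC, and 10.02, 11.20 and 10.46 in COF. The CAF arrays lay close together and above all others, and CAF minus COF was 2.72 ± 0.57 (adjusted p = 0.00572). The COF arrays spread more widely, and with the closely similar arrays of each fibroblast group averaged the adjusted p was 0.0724.

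Cxcl13, the B cell attractant of lymphoid follicles, read 11.84, 12.08 and 12.74 in CAF, 8.48 and 8.37 in CSC, 8.49 and 10.13 in TEC, and 10.12, 9.62 and 9.94 in COF. CAF lay above COF on every array, with CAF replicate 3 the highest, and the difference was 2.33 ± 0.38 (adjusted p = 0.00169). A second probe set of Cxcl13 gave 2.32.

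Cxcl12, the ligand of Cxcr4 and Ackr3 and a typical product of fibroblasts, read 13.83, 13.74 and 13.68 in CAF, 9.20 and 9.17 in CSC, 9.90 and 12.24 in TEC, and 12.52, 12.21 and 12.44 in COF. It differed by less than the others, 1.36 ± 0.46 (adjusted p = 0.0462). The arrays of CAF and COF did not overlap and a second probe set differed by 1.80. The call was lost in 12 of 21 other settings, among them each fit that left out a CAF, COF or CSC array. For Cxcl12 in CAF minus COF, a fit of those arrays alone gave an adjusted p of 7.13e-05. Its SDs were 0.07 in CAF and 0.16 in COF against 1.65 in TEC, which shares the fit of all groups.

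**Figure D2:**
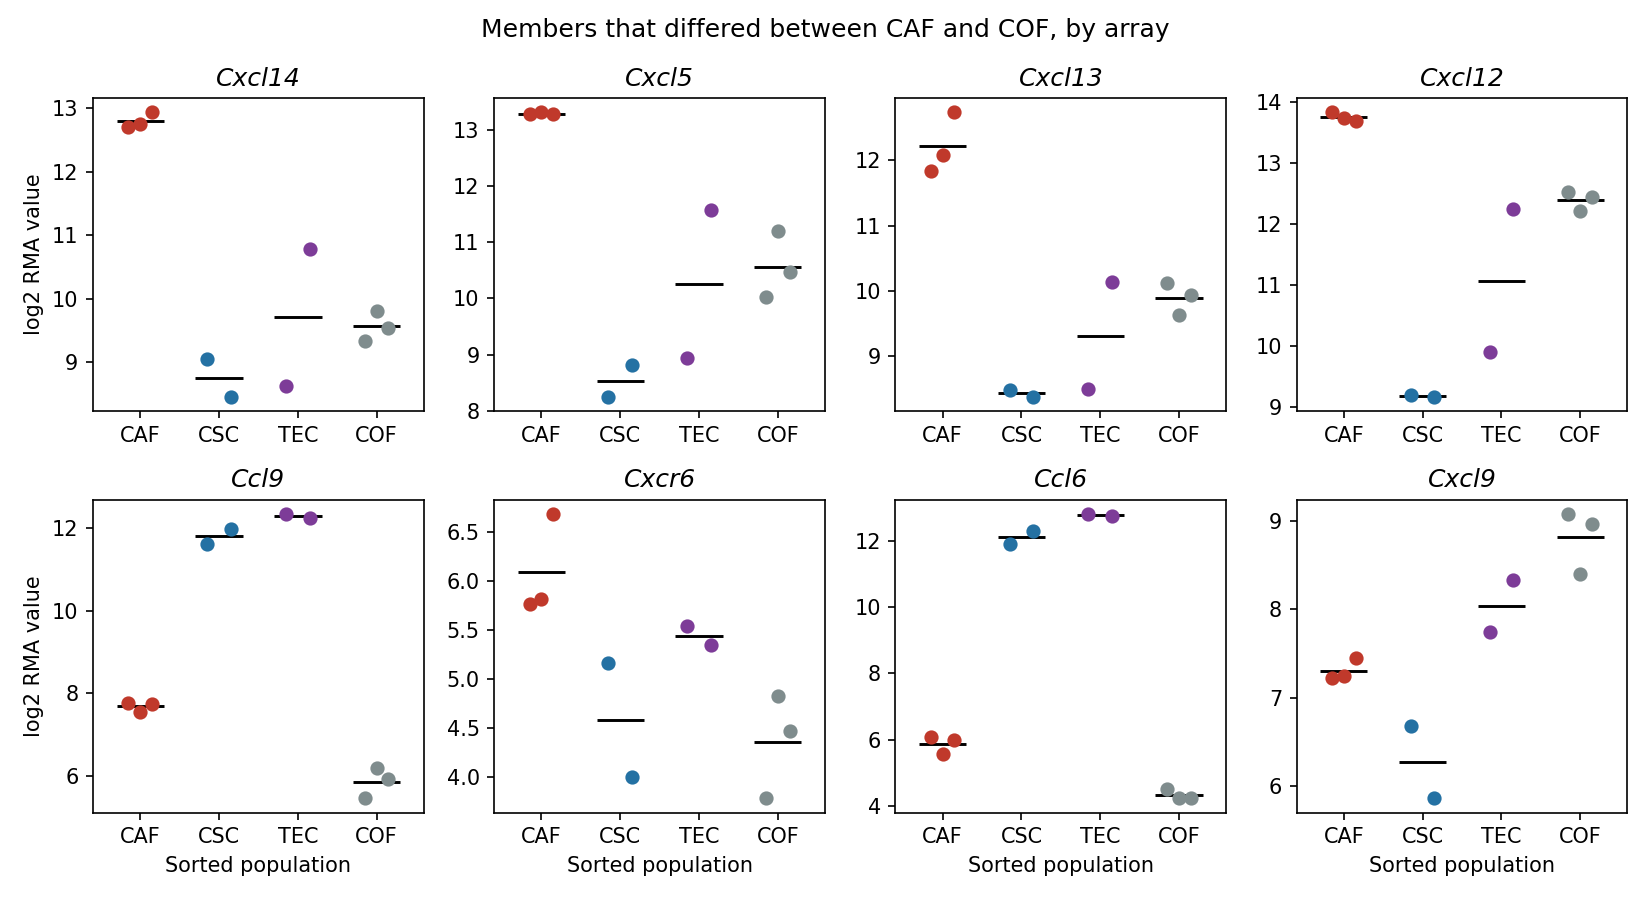
Log2 values of chemokine genes that differed between CAF and COF, 1 panel a gene, with each array as a point and the group mean as a line, CAF, CSC, TEC and COF left to right. Each panel has an axis of its own. Cxcl14, Cxcl5 and Cxcl13 are highest in CAF, Ccl9 and Ccl6 are higher in CAF than in COF and highest in CSC and TEC, and Cxcl9 is highest in COF.

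Of the CC ligands that were higher in CAF than in COF, Ccl9, Ccl6 and Ccl3 stood far below the tumour-sorted CSC and TEC arrays. Ccl9, a mouse ligand of Ccr1, read 7.76, 7.55 and 7.73 in CAF, 11.63 and 11.97 in CSC, 12.35 and 12.24 in TEC, and 5.45, 6.18 and 5.91 in COF, and CAF minus COF was 1.83 ± 0.18 (adjusted p = 0.000119). Its second probe set gave 2.12. Ccl6, another mouse ligand of Ccr1, read 6.07, 5.55 and 5.99 in CAF, 11.92 and 12.32 in CSC, 12.83 and 12.77 in TEC, and 4.51, 4.24 and 4.22 in COF. CAF lay above COF on all arrays, by 1.55 ± 0.16 (adjusted p = 0.000173), and far below CSC and TEC. The second probe set of Ccl6 gave a CAF minus COF of only 0.71. With the one used, the COF arrays lay below the lower quartile.

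Ccl3, a ligand of Ccr1 made by activated macrophages, read 5.10, 4.68 and 5.90 in CAF, 10.62 and 10.30 in CSC, 13.28 and 12.50 in TEC, and 4.04, 4.16 and 4.25 in COF. CAF minus COF was 1.08 ± 0.30 (adjusted p = 0.0214). The call was lost without CAF replicate 3, COF replicate 1 or COF replicate 3. Of the 5 ligands of that list (Ccl3, Ccl4, Ccl5, Ccl6 and Ccl9) 3 passed in CAF against COF, and Ccl4 and Ccl5 had differences of 0.24 ± 0.22 (adjusted p = 0.453) and 0.74 ± 0.34 (adjusted p = 0.133).

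Some lists of leukocyte markers moved with these ligands. Between CAF and COF 9 of 12 general leukocyte markers were higher and none was lower. Of 15 macrophage markers 8 were higher and 1 lower. Of 8 neutrophil markers and of 8 mast cell markers 4 were higher and none was lower. Other lists did not move with them, since none of 7 B cell markers was called. Of 5 dendritic cell markers, a list that holds the member Xcr1, none was higher and 1 was lower. The 15 macrophage markers had a summed log2 level between 11.02 and 11.52 in CAF, and between 9.83 and 10.04 in COF, and Mrc1, Itgam and Cd163 lay below the lower quartile on all arrays of both groups. Their part in the ligand differences was not tested.

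Cxcr6, the receptor of Cxcl16 and known from T and NK cells, was the receptor with the greatest CAF minus COF difference. It read 5.77, 5.82 and 6.69 in CAF, 5.16 and 4.0 in CSC, 5.54 and 5.35 in TEC, and 3.78, 4.83 and 4.47 in COF. CAF lay above all other arrays, by 1.73 ± 0.37 (adjusted p = 0.00621) over COF. The other probe set of Cxcr6 gave 1.10, and the COF arrays of the one used lay below the lower quartile. Xcl1, a ligand that T and NK cells make, read 6.56, 7.36 and 7.97 in CAF, 6.45 and 5.32 in CSC, 6.78 and 6.50 in TEC, and 5.76, 6.50 and 5.87 in COF, with CAF replicate 3 highest and CAF minus COF 1.25 ± 0.39 (adjusted p = 0.0342). Of 10 T and NK cell markers 3 were higher in CAF than in COF and none was lower. They had a summed log2 level between 9.61 and 10.41 in CAF, and between 9.21 and 9.27 in COF, their median was highest in CAF replicate 3, and their part in Cxcr6 and Xcl1 was not tested. Xcl1 was not called without CAF replicate 2 or 3 or COF replicate 1 or 3.

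Cxcl16, the membrane-bound ligand of Cxcr6, was also higher in CAF. It read 9.32, 9.04 and 9.11 in CAF, 9.90 and 9.49 in CSC, 9.95 and 9.86 in TEC, and 8.64, 8.52 and 8.60 in COF, and CAF minus COF was 0.57 ± 0.12 (adjusted p = 0.00653). CAF lay between COF and the CSC and TEC arrays with no overlap. Ccl20, the ligand of Ccr6, also lay between COF and the other groups, with 5.80, 5.45 and 5.64 in CAF, 7.30 and 7.55 in CSC, 6.42 and 6.55 in TEC, and 5.05, 5.23 and 4.96 in COF. CAF minus COF was 0.55 ± 0.12 (adjusted p = 0.00761). Between CAF and COF epithelial markers moved with both ligands, since 8 of 13 were higher in CAF and 1 lower. Their summed log2 level lay between 10.97 and 11.48 in CAF, and between 10.08 and 10.80 in COF. Esrp1 lay below the lower quartile on all arrays of both groups. General leukocyte markers moved with both ligands too, with 9 of 12 higher and none lower. Between CSC and TEC the ligands differed. Ccl20 was higher in CSC, as were all 13 epithelial markers. Cxcl16 had its highest mean in TEC, where all 12 general leukocyte markers were higher than in CSC. Its CSC minus TEC difference was -0.22 ± 0.15 (adjusted p = 0.273) and did not pass. The part of either marker list in these differences was not tested. Ccl7, a monocyte attractant, and Cxcr3, the receptor of Cxcl9 and Cxcl10, passed narrowly with 0.88 ± 0.30 (adjusted p = 0.0485) and 0.34 ± 0.11 (adjusted p = 0.0379). Both calls were lost without any 1 of several CAF or COF arrays.

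Cxcl9 was the only interferon-induced CXC ligand with a call between the fibroblast groups. It attracts T cells through Cxcr3 and read 7.22, 7.24 and 7.45 in CAF, 6.68 and 5.86 in CSC, 7.74 and 8.33 in TEC, and 9.08, 8.40 and 8.97 in COF. Every CAF array lay below every COF array, and CAF minus COF was -1.52 ± 0.25 (adjusted p = 0.00188). Cxcl10, which acts on the same receptor, read 9.22, 9.54 and 10.61 in CAF, 8.33 and 7.67 in CSC, 8.41 and 8.67 in TEC, and 10.26, 10.13 and 10.23 in COF. CAF overlapped COF because CAF replicate 3 was above all COF arrays, and the difference was -0.41 ± 0.32 (adjusted p = 0.377). Cxcl11 differed by -0.04 ± 0.14 (adjusted p = 0.87).

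The other 4 members that were lower in CAF differed by 0.44 to 0.50. Ackr1, a receptor that binds many chemokines and is known from venules and red cells, read 8.03, 7.89 and 8.25 in CAF, 6.83 and 6.70 in CSC, 6.82 and 7.05 in TEC, and 8.51, 8.43 and 8.73 in COF, and CAF minus COF was -0.50 ± 0.13 (adjusted p = 0.0138). Ackr2, a scavenger of inflammatory CC chemokines, read 6.72, 6.70 and 6.65 in CAF, 4.34 and 4.26 in CSC, 4.70 and 4.69 in TEC, and 7.30, 7.04 and 7.16 in COF. CAF minus COF was -0.48 ± 0.09 (adjusted p = 0.00286) for Ackr2, and its other probe set gave -0.27. Ccl25, the ligand of Ccr9, read 5.94, 5.75 and 5.79 in CAF, 5.60 and 5.66 in CSC, 4.97 and 5.34 in TEC, and 6.47, 6.13 and 6.30 in COF, with -0.47 ± 0.12 (adjusted p = 0.0168). Cx3cl1, the membrane-bound ligand of Cx3cr1, read 7.48, 7.38 and 7.46 in CAF, 7.95 and 8.15 in CSC, 7.25 and 7.18 in TEC, and 7.79, 8.17 and 7.68 in COF, with -0.44 ± 0.13 (adjusted p = 0.0269). None of the CAF arrays overlapped COF in these 4 genes. The 3 probe sets of Cx3cl1 disagreed, with CAF minus COF of -0.44, 0.04 and -0.28, and their mean had an adjusted p of 0.249. The Cx3cl1 call was lost without any of the CAF arrays, that of Ackr1 without CAF replicate 2 or COF replicate 3, and that of Ccl25 without CAF replicate 2 or 3 or COF replicate 1 or 3.

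Several ligands that were high in both fibroblast groups did not pass between them. Ccl2, the main ligand of Ccr2, read 13.78, 13.76 and 13.74 in CAF, 10.53 and 10.67 in CSC, 11.34 and 12.55 in TEC, and 13.88, 13.56 and 13.86 in COF. CAF overlapped COF, and the difference was -0.01 ± 0.25 (adjusted p = 0.981) with a 95% interval of -0.58 to 0.56. Ccl11, the eosinophil attractant eotaxin, read 12.72, 12.76 and 12.70 in CAF, 7.15 and 7.01 in CSC, 7.64 and 10.31 in TEC, and 12.99, 12.78 and 12.91 in COF, and CAF minus COF was -0.17 ± 0.52 (adjusted p = 0.854), with an interval of -1.34 to 1.01. Every CAF array of Ccl11 lay below every COF array, with SDs of 0.03 in CAF and 0.11 in COF against 1.89 in TEC, which shares the fit, and a fit of the CAF and COF arrays alone gave an adjusted p of 0.113. For Cxcl1, a ligand of Cxcr2, CAF minus COF was 0.10 ± 0.08 (adjusted p = 0.437) with an interval of -0.09 to 0.28. None of the 9 CC receptors on the list passed between CAF and COF in limma, 0 of them had an unadjusted p under 0.05, and their differences lay between -0.11 and 0.50.

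The number of calls between CAF and COF depended on single arrays. It was 11 without CAF replicate 2 or without COF replicate 3, 13 without CAF replicate 3 or without COF replicate 1, and 7 with CAF replicates 1 and 2, and COF replicates 1 and 3, averaged. Cxcl14, Cxcl13, Ccl9, Ccl6, Cxcr6, Cxcl9 and Ackr2 are the 7 calls that held in each of the 20 or 21 other settings in which the gene was present.

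Cxcl1, Cxcl2 and Cxcl10 are textbook targets of the transcription factor NF-kappaB, and Cxcl10 also of interferon-activated factors. Their promoters are shown because 3 related ligands that were highest in different groups hold these motifs. Of the 53 members 40 were found in a RefSeq table of promoters (GRCm38.p6), and the 250 bases before the start of each were searched on both strands for GGGA followed after any 2 bases by TTCC, and for TTTC followed after any 2 bases by TTTC, taken as simple NF-kappaB and interferon response patterns. In the sequences the letters in capitals are the matches. The windows are chr5:90890995-90891244 on the plus strand, chr5:90903649-90903898 on the plus strand and chr5:92348890-92349139 on the minus strand, each written 5′ to 3′ along the gene's strand.
Cxcl1: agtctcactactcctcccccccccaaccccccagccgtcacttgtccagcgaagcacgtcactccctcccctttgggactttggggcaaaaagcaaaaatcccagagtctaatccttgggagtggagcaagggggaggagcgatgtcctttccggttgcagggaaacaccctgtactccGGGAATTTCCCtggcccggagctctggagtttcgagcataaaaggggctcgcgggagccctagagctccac
Cxcl2: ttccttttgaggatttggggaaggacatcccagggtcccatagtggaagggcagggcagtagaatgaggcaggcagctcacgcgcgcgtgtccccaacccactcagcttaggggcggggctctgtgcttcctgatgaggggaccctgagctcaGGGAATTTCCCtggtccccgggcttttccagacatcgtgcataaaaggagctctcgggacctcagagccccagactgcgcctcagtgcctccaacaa
Cxcl10: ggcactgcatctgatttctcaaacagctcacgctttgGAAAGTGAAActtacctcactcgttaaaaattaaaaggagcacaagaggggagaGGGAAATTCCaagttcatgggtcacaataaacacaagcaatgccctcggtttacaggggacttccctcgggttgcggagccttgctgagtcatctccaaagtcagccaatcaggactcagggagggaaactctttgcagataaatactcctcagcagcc
The NF-kappaB pattern begins 71 bases before the start in Cxcl1, 97 in Cxcl2 and 159 in Cxcl10. In Cxcl1 and Cxcl2 it overlaps a match on the other strand that is shifted by 1 base, in the same letters GGGAATTTCCC. The interferon pattern of Cxcl10 begins 213 bases before the start as GAAAGTGAAA. It was found in Cxcl14 as well, 172 bases before the start.

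The NF-kappaB pattern occurred in 5 of the 40 member genes (Ccl1, Ccr3, Cxcl1, Cxcl10 and Cxcl2) and in 1.36% of all 27025 genes of that table. The interferon pattern occurred in 2 of 40 and in 3.46% of all genes. A match is a string of letters and not evidence of binding. The genes with a match differed in the group with the highest mean. It was CAF for Cxcl1, Ccr3 and Cxcl14, TEC for Cxcl2, and COF for Cxcl10 and Ccl1. All had their lowest mean in CSC, Ccr3 on weak signal. So did searched members without a match, among them Cxcl12, Cxcl13, Cxcl9 and Ackr3, and the share of all genes was not computed. The members with a match were all called higher in CAF than in CSC, by 0.41 (Cxcl2) to 4.04 (Cxcl14), as were 33.4% of all genes. The part of the motifs in this was not tested. Cxcl1 read 14.48, 14.49 and 14.49 in CAF, 13.27 and 13.22 in CSC, 13.82 and 14.04 in TEC, and 14.41, 14.35 and 14.41 in COF, so CAF was highest and CSC lowest, and CAF minus CSC was 1.24 ± 0.09 (adjusted p = 4.26e-06). Cxcl2 read 14.13, 14.07 and 14.02 in CAF, 13.69 and 13.63 in CSC, 14.53 and 14.35 in TEC, and 14.04, 13.89 and 14.02 in COF, with TEC highest on both arrays and CAF minus TEC -0.37 ± 0.10 (adjusted p = 0.00766). Without TEC replicate 1 that call was lost (adjusted p = 0.0518). Cxcl10 was lower in CSC and TEC than in COF, with differences of -2.21 ± 0.36 (adjusted p = 0.00047) and -1.67 ± 0.36 (adjusted p = 0.00257).

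The second comparison set CAF against CSC, the populations whose interactions the series design asks about. Fibroblasts held the higher values of Ccl11, Cxcl5, Cxcl12, Cxcl14 and Cxcl13 and of the atypical receptors Ackr1, Ackr2 and Ackr3. CSC held the higher values of Ccl6, Ccl12, Ccl3, Ccl4 and Ccl9 and of the receptors Ccr1, Ccr2, Cxcr4 and Cx3cr1. In all, 39 of 53 members passed (73.6%, against 66.5% of all genes), 21 higher in CAF, where 33.4% of all genes were, and 18 lower, where 33.1% were. Of the ligands 29 of 32 passed, 15 higher and 14 lower, and of the receptors 10 of 21 passed, 6 higher and 4 lower.

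Ccl11 had the greatest excess in CAF, 5.65 ± 0.58 (adjusted p = 3.2e-05), a 50.1-fold higher value, with the values given above. Cxcl5 followed with 4.75 ± 0.64 (adjusted p = 0.000162) and Cxcl12 with 4.57 ± 0.51 (adjusted p = 5.42e-05), which is 23.7-fold. Cxcl14 and Cxcl13 were higher by 4.04 and 3.79. In these 5 genes no CAF array overlapped a CSC array. Ccl2 was 3.15 ± 0.28 (adjusted p = 1.39e-05) higher in CAF, and Ccl7, which read 13.22, 13.24 and 13.35 in CAF, 10.76 and 11.07 in CSC, 10.76 and 12.18 in TEC, and 12.58, 12.18 and 12.44 in COF, was 2.36 ± 0.33 (adjusted p = 0.000229) higher. Ccl24, a further ligand of Ccr3, was higher by only 0.60.

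Ccl12, a mouse ligand of Ccr2, went the other way. It read 3.33, 3.47 and 3.55 in CAF, 9.51 and 9.02 in CSC, 8.74 and 8.65 in TEC, and 3.54, 5.11 and 4.01 in COF, with CSC and TEC far above CAF and COF. CAF minus CSC was -5.82 ± 0.37 (adjusted p = 1.83e-06), a size set against a probe set that lay below the lower quartile on all 6 CAF and COF arrays. Ccl8, the remaining monocyte attractant of that list, read 11.82, 11.75 and 11.67 in CAF, 12.23 and 12.78 in CSC, 11.21 and 12.28 in TEC, and 11.46, 11.33 and 11.36 in COF, with -0.76 ± 0.27 (adjusted p = 0.0345), and the call was lost without CSC replicate 2, COF replicate 3 or any of the CAF arrays. Of the 6 measured ligands of the monocyte attractant and eotaxin list, 4 were thus higher and 2 lower in CAF than in CSC.

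All 5 ligands Ccl3, Ccl4, Ccl5, Ccl6 and Ccl9 were lower in CAF than in CSC. Ccl6 differed by -6.25 ± 0.18 (adjusted p = 3.42e-08), which is 76.1-fold, and Ccl3 by -5.23 ± 0.34 (adjusted p = 1.78e-06). Ccl4, a further product of activated macrophages, read 6.60, 6.54 and 7.10 in CAF, 11.15 and 10.70 in CSC, 12.18 and 11.44 in TEC, and 6.53, 6.44 and 6.54 in COF, with -4.18 ± 0.24 (adjusted p = 9.8e-07). Ccl9 differed by -4.12 ± 0.20 (adjusted p = 3.13e-07). Ccl5, the T cell product RANTES, read 7.64, 7.74 and 8.53 in CAF, 9.53 and 8.38 in CSC, 12.72 and 12.41 in TEC, and 6.95, 7.71 and 7.03 in COF. Its CAF and CSC arrays overlapped, its difference was -0.98 ± 0.38 (adjusted p = 0.0462), and the call was lost in 12 of 21 settings, among them the fit without CSC replicate 1.

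**Figure D3:**
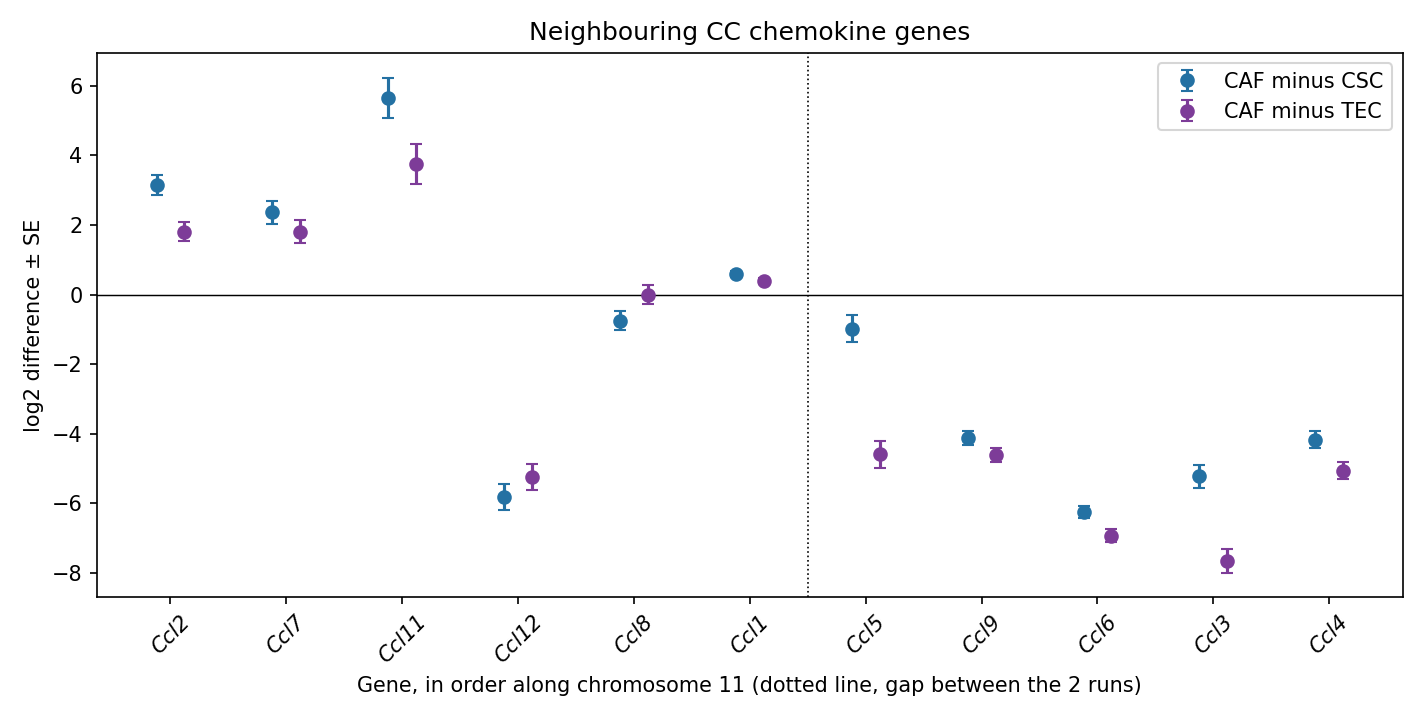
Log2 differences of CAF minus CSC and CAF minus TEC for 2 runs of neighbouring Ccl genes on mouse chromosome 11, in gene order left to right, with standard errors as bars. In the first run Ccl2, Ccl7 and Ccl11 lie above 0 and Ccl12 below it, and in the second run all of Ccl5, Ccl9, Ccl6, Ccl3 and Ccl4 lie below 0.

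Those CC ligands are neighbours in the genome. Members were taken as a run where at most a few other protein-coding genes of the RefSeq annotation lay between neighbours. By this rule Ccl2, Ccl7, Ccl11, Ccl12, Ccl8 and Ccl1 form a run of 6 on chromosome 11. On the same chromosome Ccl5, Ccl9, Ccl6, Ccl3 and Ccl4 form a run of 5. The second run was lower in CAF than in CSC and TEC in all 5 members. The first run was divided, since Ccl2, Ccl7, Ccl11 and Ccl1 were higher in CAF than in both CSC and TEC, Ccl12 was lower in CAF than in both, and Ccl8 was -0.76 against CSC and 0.0 against TEC. Ccl1, a ligand of Ccr8, differed by only 0.58 and 0.38. On chromosome 5 the run Cxcl5, Cxcl15, Cxcl1 and Cxcl2 was divided too, with Cxcl5, Cxcl1 and Cxcl2 higher and Cxcl15, a mouse neutrophil attractant known from lung, lower in CAF than in CSC, with a difference of -1.38 ± 0.20 (adjusted p = 0.000284). Cxcl15 lay below the lower quartile on 9 of 10 arrays.

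Among receptors, Ccr1 had the greatest CAF minus CSC deficit. It read 4.71, 4.65 and 5.19 in CAF, 10.06 and 9.24 in CSC, 12.67 and 12.18 in TEC, and 4.62, 4.25 and 4.18 in COF, and CAF minus CSC was -4.80 ± 0.27 (adjusted p = 8.7e-07). Both probe sets of Ccr1 gave similar values, -4.80 and -4.73. Ccr2, the monocyte receptor of Ccl2, read 3.14, 3.13 and 3.19 in CAF, 7.58 and 6.52 in CSC, 8.89 and 8.64 in TEC, and 3.0, 2.93 and 3.07 in COF, with -3.90 ± 0.25 (adjusted p = 1.67e-06). The other 2 probe sets of Ccr2 gave -2.55 and -2.38. For both receptors the fibroblast groups lay below the lower quartile of the arrays, so the size of the difference depends on the array's background there.

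Cxcr4, the signalling receptor of Cxcl12, read 5.72, 5.84 and 7.77 in CAF, 9.30 and 9.19 in CSC, 11.65 and 11.19 in TEC, and 6.21, 7.16 and 6.64 in COF. CSC lay above every CAF array, and CAF minus CSC was -2.80 ± 0.55 (adjusted p = 0.00162). Within CAF, replicate 3 stood above the other replicates, and it also had the highest leukocyte markers of its group. Cx3cr1, a receptor of monocytes and macrophages, read 6.29, 6.15 and 6.20 in CAF, 8.79 and 8.26 in CSC, 7.99 and 7.64 in TEC, and 6.53, 6.28 and 6.32 in COF, with -2.31 ± 0.17 (adjusted p = 4.18e-06). Its other probe set gave -0.82.

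Ccr3, the eotaxin receptor, read 4.63, 4.41 and 4.35 in CAF, 3.36 and 3.45 in CSC, 4.42 and 3.89 in TEC, and 4.35, 4.35 and 4.27 in COF. It was called higher in CAF than in CSC, 1.06 ± 0.15 (adjusted p = 0.000276), although it lay below the lower quartile on every array. Ccr10, a receptor of Ccl27a and Ccl28, read 6.24, 6.19 and 5.97 in CAF, 5.32 and 5.59 in CSC, 6.62 and 7.39 in TEC, and 6.36, 6.18 and 6.19 in COF, with 0.68 ± 0.21 (adjusted p = 0.0162), which was lost without CAF replicate 1 or CSC replicate 1. Ackr3, the scavenger of Cxcl12, read 13.69, 13.68 and 13.65 in CAF, 9.75 and 10.20 in CSC, 9.32 and 12.24 in TEC, and 13.63, 13.26 and 13.52 in COF. It was high in both fibroblast groups, and CAF minus CSC was 3.70 ± 0.65 (adjusted p = 0.000819). Ackr2 was 2.39 ± 0.10 (adjusted p = 1.35e-07) and Ackr1 1.29 ± 0.14 (adjusted p = 4.42e-05) higher in CAF, while Ackr4, the scavenger of Ccl25, differed by 0.24 ± 0.13 (adjusted p = 0.121).

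Smaller CAF minus CSC differences rested on single CSC arrays. Without CSC replicate 1 the calls of Ccl22, Ccl27a, Ccl5, Ccr10 and Cxcl16 were lost, and without CSC replicate 2 those of Ccl8, Cxcl9, Cxcr6 and Xcl1. The 2 CSC arrays differed by over 1 log2 unit in 6 of the 53 members. General leukocyte and myeloid markers moved with the members that were higher in CSC, since all 12 general leukocyte, all 15 macrophage and 7 of 8 neutrophil markers were lower in CAF than in CSC. Other lists did not, since 3 of 10 T and NK cell markers were higher in CAF and none was lower. Of the B cell markers 3 of 7 and of the mast cell markers 3 of 8 were higher, with 2 lower in each. Of the 5 dendritic cell markers, a list that holds the member Xcr1, 1 was higher and 2 were lower. Of all genes 33.4% were higher in CAF than in CSC and 33.1% lower. The summed log2 level of the macrophage markers was 11.02 to 11.52 in CAF and 15.66 to 15.82 in CSC, and their part in the differences was not tested.

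The third comparison set CAF against TEC. Of 53 members 42 passed (79.2%, against 67.5% of all genes), 15 higher in CAF, where 38.6% of all genes were, and 27 lower, where 28.9% were. The ligands were split with 12 higher and 14 lower and a median difference of 0.00. Of the 21 receptors 3 were higher and 13 lower, with a median of -0.71, against 0.12 over all genes. The 3 that were higher were the atypical receptors Ackr1, Ackr2 and Ackr3. Of 9 CC receptors 6 were lower and of 5 CXC receptors 4, and none was higher.

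**Figure D4:**
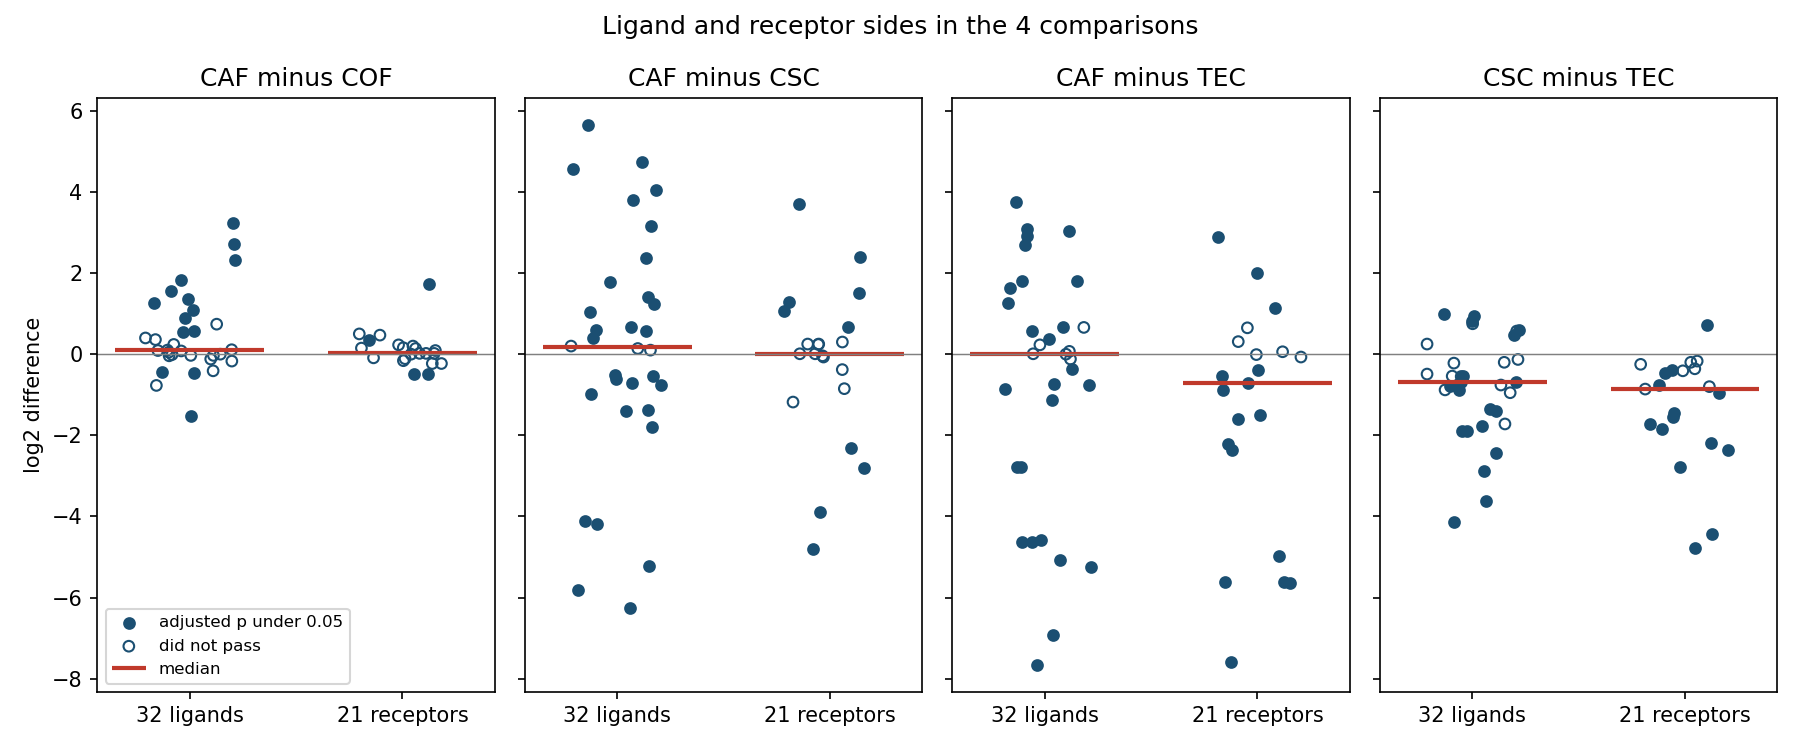
Differences in log2 units of the 32 ligands and the 21 receptors in CAF minus COF, CAF minus CSC, CAF minus TEC and CSC minus TEC, 1 point a gene. Filled points passed at an adjusted p under 0.05. In CAF minus TEC and CSC minus TEC the receptors lie mostly below 0, with medians of -0.71 and -0.86.

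Ccl3 and Ccr1 had the greatest deficits of CAF against TEC. Ccl3 differed by -7.66 ± 0.34 (adjusted p = 2.59e-07), which is 203-fold, and Ccr1 by -7.58 ± 0.27 (adjusted p = 1.01e-07). Ccl6 followed with -6.93 ± 0.18 (adjusted p = 3.79e-08). For Ccl3 and Ccr1 the CAF arrays lay below or near the lower quartile, so the exact size of the fold is uncertain.

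Cxcr2, the neutrophil receptor of Cxcl1, Cxcl2 and Cxcl5, read 5.28, 5.19 and 5.15 in CAF, 6.83 and 5.28 in CSC, 11.23 and 10.44 in TEC, and 5.21, 5.14 and 5.22 in COF. Both TEC arrays lay far above the rest, and CAF minus TEC was -5.63 ± 0.38 (adjusted p = 2.98e-06). Ccr7, which guides T cells and dendritic cells to lymph nodes, read 5.20, 5.18 and 6.81 in CAF, 7.57 and 6.24 in CSC, 11.34 and 11.35 in TEC, and 4.74, 5.61 and 5.44 in COF, with -5.62 ± 0.54 (adjusted p = 2.33e-05). Ccr2 differed by -5.61 ± 0.25 (adjusted p = 2.65e-07) and Cxcr4 by -4.98 ± 0.55 (adjusted p = 5.28e-05). In these receptors CAF and COF were not told apart at the threshold, with adjusted p of 0.979 for Cxcr2 and 0.523 for Ccr7.

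Several receptors of lymphocytes and dendritic cells were lower in CAF than in TEC too, though not Cxcr6 or Ccr4, which did not pass and differed by 0.65 and 0.06. Cxcr5, the B cell receptor of Cxcl13, read 3.97, 4.0 and 3.87 in CAF, 4.79 and 3.86 in CSC, 6.50 and 5.84 in TEC, and 4.19, 3.91 and 3.69 in COF, with CAF minus TEC of -2.22 ± 0.28 (adjusted p = 0.000114). Xcr1, the receptor of Xcl1 on a type of dendritic cell, differed by -2.35 ± 0.25 (adjusted p = 4.7e-05), and Ccr6, the receptor of Ccl20, by -1.49 ± 0.21 (adjusted p = 0.000202). Ccr9, a receptor of thymus and gut lymphocytes, read 4.77, 4.82 and 4.71 in CAF, 4.30 and 4.74 in CSC, 5.22 and 5.73 in TEC, and 4.85, 4.34 and 4.65 in COF, with -0.71 ± 0.20 (adjusted p = 0.0112). Its other 2 probe sets differed by -1.94 and -2.90, and the call of the one used was lost without TEC replicate 2 (adjusted p = 0.095). Cxcr3 read 5.32, 5.42 and 5.42 in CAF, 5.38 and 5.53 in CSC, 6.11 and 5.74 in TEC, and 5.05, 5.11 and 4.97 in COF and differed by -0.54 ± 0.12 (adjusted p = 0.00337). The CAF minus TEC calls of Ccr1l1, a mouse gene like Ccr1, and Cxcl9 were lost in 13 of 20 and 9 of 21 settings, among them the fit without TEC replicate 2.

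Most leukocyte marker lists again moved with these receptors. All 12 general leukocyte, all 15 macrophage, all 8 neutrophil and all 5 dendritic cell markers were lower in CAF than in TEC. Xcr1 is itself 1 of the 5 dendritic cell markers, so that list is not separate from the receptors. Of the B cell markers 4 of 7 were lower and none was higher, and of the mast cell markers 7 of 8 were lower and 1 higher. The T and NK cell markers did not move with them, since 4 of 10 were lower and 2 higher, with a median difference of -0.12. The summed log2 level of the general leukocyte markers was 10.38 to 11.45 in CAF and 16.21 to 16.64 in TEC, and that of the neutrophil markers was 9.55 to 10.48 in CAF and 16.40 to 16.73 in TEC. Their part in the receptor differences was not tested.

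The ligands with the greatest excess in CAF over TEC were Ccl11 with 3.75 ± 0.58 (adjusted p = 0.000394), Cxcl14 with 3.09 ± 0.50 (adjusted p = 0.000523), Cxcl5 with 3.03 ± 0.64 (adjusted p = 0.0024) and Cxcl13 with 2.91 ± 0.43 (adjusted p = 0.00028). Ackr3 had 2.89 ± 0.65 (adjusted p = 0.00327) and Cxcl12 2.68 ± 0.51 (adjusted p = 0.00139). These sizes depended on TEC replicate 2, the array with the higher fibroblast markers. Without it CAF minus TEC was 5.08 for Ccl11, 4.17 for Cxcl14, 4.34 for Cxcl5, 3.73 for Cxcl13, 4.35 for Ackr3 and 3.85 for Cxcl12. With TEC replicate 2 as the only TEC array it was 2.42 for Ccl11, 2.01 for Cxcl14, 1.71 for Cxcl5, 2.09 for Cxcl13, 1.43 for Ackr3 and 1.51 for Cxcl12. These fits hold a single TEC array and take the spread from the other groups. The direction was the same both ways for these 6 genes and for Ccl2 and Ccl7, which were 1.21 to 2.41 and 1.10 to 2.51 higher in CAF.

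Over both tumour-sorted groups, 14 of 53 members were higher in CAF than in CSC and in TEC, as were 25.7% of all genes, and 15 were lower than in both, as were 20.1% of all genes. Of each set 11 were ligands, and both comparisons use the same CAF arrays. Ccl7, Cxcl12, Cxcl13, Cxcl14 and Cxcl5 were higher in CAF than in each of the other 3 groups, where 4.99% of all genes were. Ccl20, Ccl3, Ccl6, Ccl9 and Cxcl16 were higher in CAF than in COF and lower than in CSC and TEC, where 3.37% of all genes were. Another 9 members were lower in CAF than in TEC without a call against CSC, where 7.29% of all genes were, and 8 of these were receptors (Ccr1l1, Ccr6, Ccr7, Ccr9, Cxcr2, Cxcr3, Cxcr5 and Xcr1).

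COF was also set against CSC and TEC to order the groups. In CSC minus COF 38 of 53 members passed (71.7%, against 69.5% of all genes), 19 higher and 19 lower, where 33.7% and 35.8% of all genes were. In TEC minus COF 41 passed (77.4%, against 68.2%), 27 higher and 14 lower, where 29.8% and 38.5% of all genes were. The order of the group means differed between the ligands. For Cxcl12 it was CAF, COF, TEC and CSC, and each neighbour in the order differed at an adjusted p under 0.05, with 0.0462 for CAF and COF, 0.045 for TEC and COF, and 0.0217 for CSC and TEC. The place of TEC below COF rested on TEC replicate 1, since TEC replicate 2 lay within the COF range. For Cxcl14 it was CAF, TEC, COF and CSC, and only CAF was apart, since TEC minus COF was 0.14 ± 0.50 (adjusted p = 0.816) and CSC minus COF -0.81 ± 0.50 (adjusted p = 0.179). For Cxcl13 and Cxcl5, COF and TEC were neighbours that did not pass, with TEC minus COF of -0.58 ± 0.43 (adjusted p = 0.247) and -0.30 ± 0.64 (adjusted p = 0.69). For Ccl11 and Ccl2 the fibroblast groups were neighbours that did not pass, and TEC lay above CSC in both.

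The fourth comparison set CSC against TEC. Of 53 members 33 passed (62.3%, against 46.7% of all genes), 6 higher in CSC, where 26.6% of all genes were, and 27 lower, where 20.1% were. Among ligands 5 were higher and 14 lower, and among receptors 1 was higher and 13 lower. The median difference was -0.68 for ligands, -0.86 for receptors and 0.00 for all genes.

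The 6 members that were higher in CSC differed by less than 1 log2 unit. Ccl27a, a ligand of Ccr10 known from epithelium, read 6.91, 6.97 and 7.01 in CAF, 5.97 and 6.65 in CSC, 5.19 and 5.46 in TEC, and 6.63, 6.48 and 6.57 in COF, with CSC minus TEC of 0.98 ± 0.20 (adjusted p = 0.00307). Ccl20 was 0.94 ± 0.15 (adjusted p = 0.000879) and Cx3cl1 0.83 ± 0.16 (adjusted p = 0.00229) higher. The probe sets of Cx3cl1 that were not used gave -0.18 and 0.91. Cx3cr1 was 0.71 ± 0.19 (adjusted p = 0.0123) higher and lost the call without TEC replicate 2 or CSC replicate 1. Cxcl17, a ligand of mucosal epithelium, read 6.66, 6.52 and 6.61 in CAF, 7.42 and 7.22 in CSC, 6.72 and 6.71 in TEC, and 6.58, 6.66 and 6.40 in COF, with CSC above all other arrays and CSC minus TEC of 0.60 ± 0.12 (adjusted p = 0.0028). Ccl25 was 0.47 ± 0.15 (adjusted p = 0.0307) higher. The 13 epithelial markers were all higher in CSC than in TEC, with a summed log2 level of 16.12 to 16.33 in CSC and 13.70 to 14.27 in TEC, and their part in these 6 members was not tested.

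Cxcr2 and Ccr7 had the greatest deficits in CSC, -4.78 ± 0.42 (adjusted p = 3.47e-05) and -4.44 ± 0.59 (adjusted p = 0.000303). Ccl22, a ligand of Ccr4 made by dendritic cells and macrophages, read 5.71, 5.67 and 5.66 in CAF, 6.47 and 5.91 in CSC, 10.40 and 10.23 in TEC, and 5.68, 5.66 and 5.71 in COF. Only TEC stood high, and CSC minus TEC was -4.13 ± 0.16 (adjusted p = 2.86e-06). Ccl17, the other ligand of Ccr4, read 5.89, 6.30 and 5.96 in CAF, 5.77 and 6.13 in CSC, 9.14 and 8.54 in TEC, and 5.85, 5.98 and 5.99 in COF, with -2.89 ± 0.22 (adjusted p = 1.75e-05) and no difference called between CSC and CAF. Ccl5 was lower too, with -3.61 ± 0.42 (adjusted p = 0.00015). Ccr1, Ccl3 and Xcr1 differed by -2.78, -2.43 and -2.36. Of the 9 CC receptors 7 were lower in CSC than in TEC and of the 5 CXC receptors 4, with none higher.

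Not every leukocyte-type ligand was lower in CSC. Ccl12 had 0.57 ± 0.41 (adjusted p = 0.291), Ccl8 0.75 ± 0.30 (adjusted p = 0.0657) and Ccl9 -0.49 ± 0.22 (adjusted p = 0.0913), none of which passed. Among the 15 macrophage markers 6 were higher and 5 lower in CSC than in TEC. All 8 neutrophil, all 7 B cell and all 5 dendritic cell markers were lower, and the dendritic cell list holds the member Xcr1. The summed log2 level of the neutrophil markers was 13.76 to 14.49 in CSC and 16.40 to 16.73 in TEC, and their part was not tested.

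Fibroblast-type members were affected by TEC replicate 2 in this comparison as well. Cxcl12 and Ccl11 were lower in CSC, with differences of -1.89 ± 0.56 (adjusted p = 0.0217) and -1.90 ± 0.64 (adjusted p = 0.0354), and without TEC replicate 2 the differences were -0.72 and -0.56. Ccl2 differed by -1.34, and by -0.74 without that array. Without TEC replicate 2 the number of members called was 34. Single arrays decided smaller calls. Without CSC replicate 1 those of Ccl11, Ccl25, Ccl6, Cx3cr1, Cxcl12, Cxcr3 and Cxcr4 were lost, and without CSC replicate 2 those of Ackr2, Ccl11, Ccl25, Ccl4, Cxcl12 and Cxcr4. Without TEC replicate 1 those of Ccl25, Ccl4, Ccl6, Cxcr3 and Cxcr4 were lost. When only the CSC and TEC arrays were fitted 19 members passed.

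Ligands were then set beside their receptors. Of 38 textbook pairs 32 had both partners measured, and pairs that share a gene are not independent. Opposite calls can occur between any genes, since 33.4% of all genes were higher and 33.1% lower in CAF than in CSC. In CAF minus TEC these shares were 38.6% and 28.9%. No share over other gene pairs was computed, so the counts describe these pairs and are not set against a background. In CAF minus CSC, 4 pairs had the ligand higher and the receptor lower in CAF, Cxcl12 with Cxcr4, Ccl2 with Ccr2, and Ccl7 with Ccr1 and with Ccr2. Cxcl12 and Cxcr4 differed by 4.57 and -2.80, and Ccl2 and Ccr2 by 3.15 and -3.90. In 3 pairs the ligand was lower and the receptor higher in CAF, Cxcl11 with Ackr3, Cxcl16 with Cxcr6, and Ccl5 with Ccr3. The last 2 of these rested on single arrays, since Cxcl16 and Ccl5 were not called without CSC replicate 1 (adjusted p = 0.0629 and 0.391), Cxcr6 not without CSC replicate 2 (adjusted p = 0.107), and Ccl5 not without CAF replicate 1 or 2 either. Both partners were higher in CAF in 4 pairs and lower in 6.

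**Figure D5:**
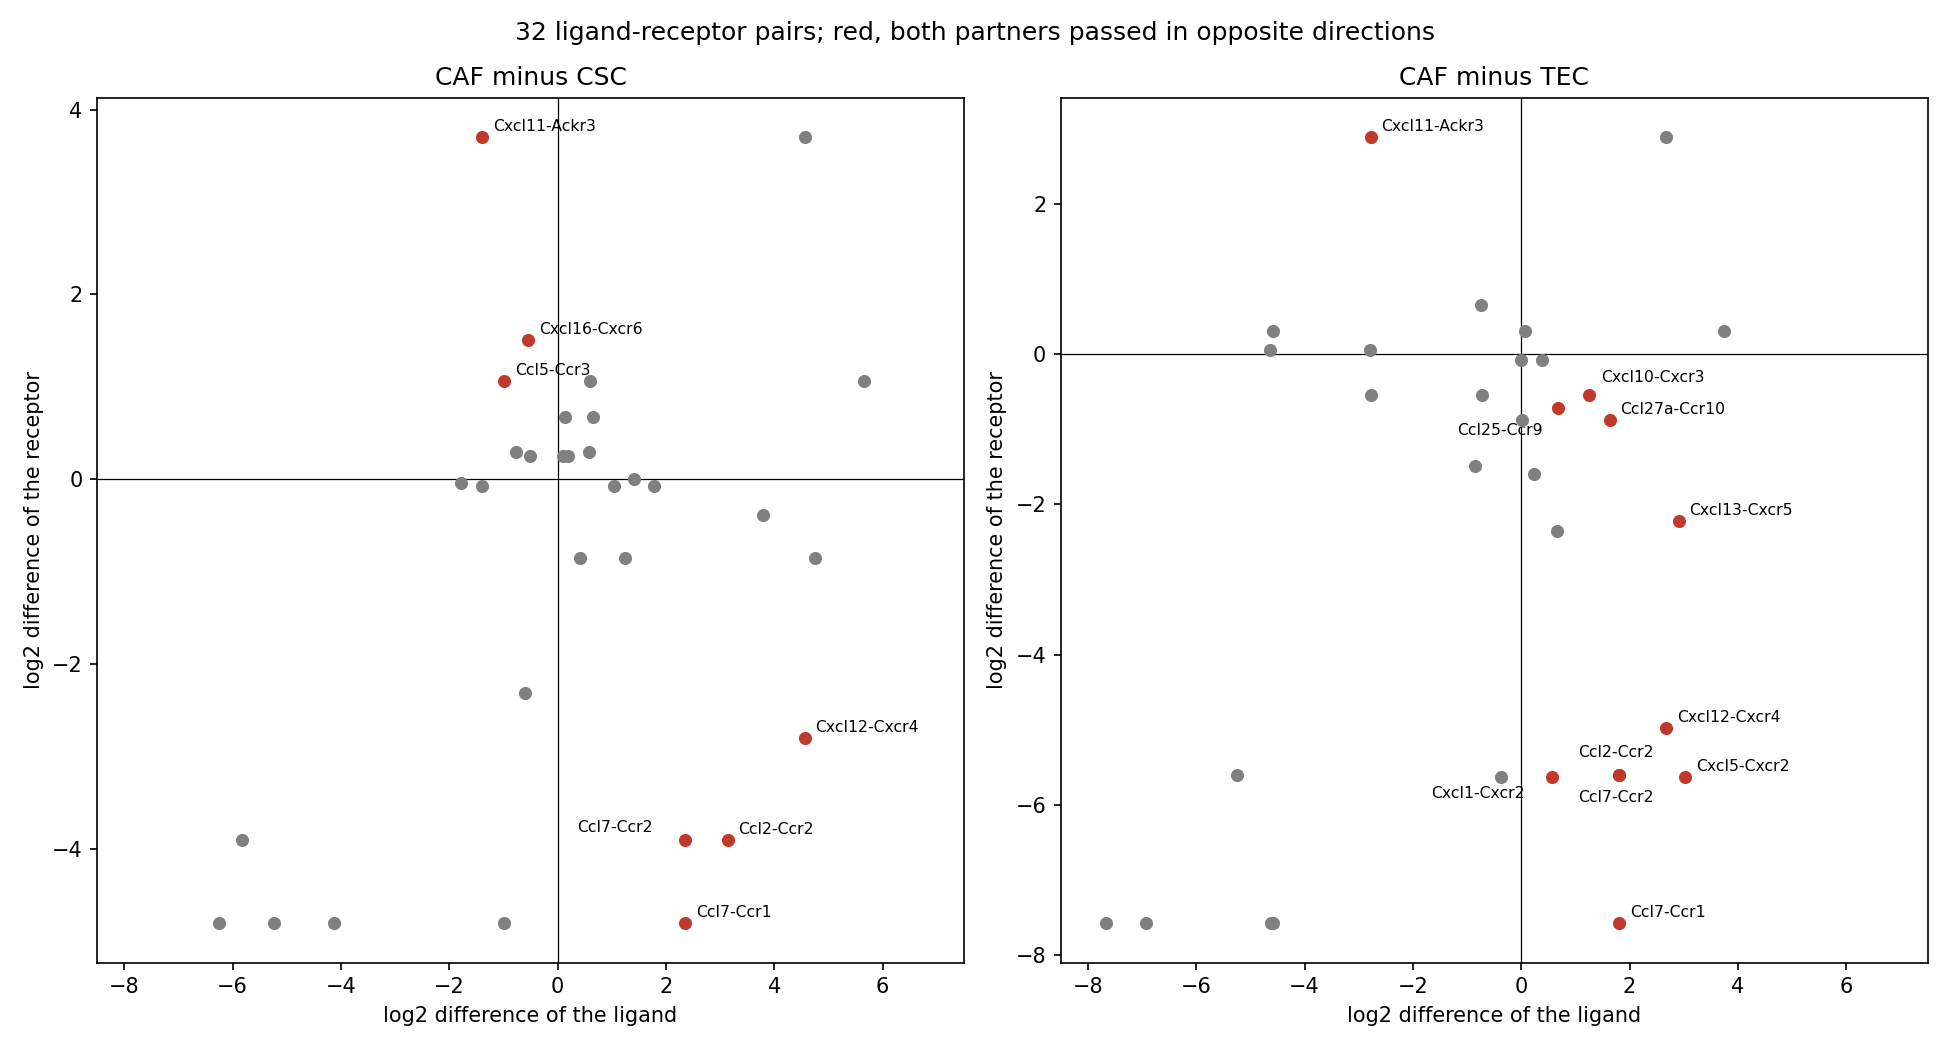
Log2 differences of the ligand (horizontal axis) and the receptor (vertical axis) of 32 textbook pairs, in CAF minus CSC on the left and CAF minus TEC on the right. Red, named points are pairs in which both partners passed in opposite directions, 7 on the left and 11 on the right, and the vertical axes differ between the panels.

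In CAF minus TEC, 10 pairs had the ligand higher and the receptor lower in CAF. They were Cxcl1 and Cxcl5 with Cxcr2, Cxcl10 with Cxcr3, Cxcl12 with Cxcr4, Cxcl13 with Cxcr5, Ccl7 with Ccr1, Ccl2 and Ccl7 with Ccr2, Ccl25 with Ccr9, and Ccl27a with Ccr10. For Cxcl5 and Cxcr2 the differences were 3.03 and -5.63, and for Cxcl13 and Cxcr5 they were 2.91 and -2.22. The pairs with Cxcl10 and Ccr9 rested on 1 TEC array, since Cxcl10 was not called without TEC replicate 1 (adjusted p = 0.115) and Ccr9 not without TEC replicate 2. In 1 pair, Cxcl11 with Ackr3, the ligand was lower and the receptor higher. Cxcl11, an interferon-induced ligand, read 4.61, 4.83 and 4.83 in CAF, 6.42 and 5.88 in CSC, 7.65 and 7.43 in TEC, and 4.81, 4.78 and 4.82 in COF, with CAF minus TEC of -2.78 ± 0.16 (adjusted p = 1.04e-06). Both partners were lower in CAF in 9 pairs, and Cxcl12 with Ackr3 was the pair in which both were higher.

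The other comparisons were counted in the same way. In CAF minus COF, Cxcl16 and Cxcr6 were both higher, by 0.57 and 1.73, and Cxcl9 was lower while Cxcr3 was higher. In the other 30 pairs at most 1 partner passed. In CSC minus TEC both partners were lower in 12 pairs, and the ligand was higher with the receptor lower in 3.

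Ackr4, Ccl28, Ccr4 and Ccr8 were called in none of the 4 comparisons. Ackr4 and Ccl28, a ligand of mucosal epithelium, read 5.61 to 5.91 and 5.46 to 5.68 in CAF and 5.83 to 6.15 and 5.48 to 5.79 in COF. Ccr4 and Ccr8, receptors of helper and regulatory T cells, were below the lower quartile on all arrays. At the other end Ccl20, Ccl3, Ccl6, Cxcl12, Cxcl9 and Ackr2 passed in all 4 comparisons. Of all genes 34.8% passed in CAF minus COF, 66.5% in CAF minus CSC, 67.5% in CAF minus TEC and 46.7% in CSC minus TEC. The share of all genes that passed in none or in all 4 was not computed, so whether the family differs in this is not known.

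Chemokine genes with other names and the machinery around the receptors were counted from lists. Of 8 measured chemokine genes with other names, 3 were higher in CAF than in COF and none was lower (37.5%, against 34.8% of all genes). Ppbp, the platelet ligand of Cxcr2, differed by 1.99 ± 0.15 (adjusted p = 3.86e-05), and Pf4, another platelet chemokine, by 0.93 ± 0.16 (adjusted p = 0.00189). In CAF minus TEC 1 of the 8 was higher and 6 were lower (87.5%, against 67.5% of all genes), among them Pf4 with -2.91 ± 0.17 (adjusted p = 1.46e-06) and Ccrl2, a receptor-like binder of chemerin, with -4.93 ± 0.34 (adjusted p = 3.31e-06).

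Of 31 receptor signalling genes 8 were higher and 1 lower in CAF than in COF (29.0%, against 34.8% of all genes). In CAF minus TEC 5 were higher and 24 lower (93.5%, against 67.5%), and in CSC minus TEC 2 were higher and 26 lower (90.3%, against 46.7%). Tiam1, an activator of Rac, was 1.82 ± 0.14 (adjusted p = 5.15e-05) higher in CAF than in COF. Pik3cg, the lipid kinase that chemokine receptors activate in leukocytes, differed by -3.28 ± 0.12 (adjusted p = 8.81e-08) in CAF minus TEC and by -2.46 ± 0.13 (adjusted p = 5.39e-06) in CSC minus TEC. Of 9 other attractant receptors none passed between CAF and COF in limma, 0 had an unadjusted p under 0.05, and Fpr2, a formyl peptide receptor, was lower in CAF than in TEC, with -7.78 ± 0.36 (adjusted p = 3.35e-07).

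Regulators of ligand genes were mostly lower in CAF than in COF. Of 14 NF-kappaB and interferon regulators 1 was higher and 9 were lower (71.4%, against 34.8% of all genes), with a median difference of -0.65 against 0.02 for all genes. Irf1, a factor of interferon responses, differed by -1.41 ± 0.18 (adjusted p = 0.000416), Irf9 by -1.17 ± 0.17 (adjusted p = 0.00082), Stat3 by -0.76 ± 0.11 (adjusted p = 0.000884) and Rela, a subunit of NF-kappaB, by -0.72 ± 0.14 (adjusted p = 0.00388). Of 15 carriers and proteases of chemokines 6 were higher and 3 lower in CAF than in COF (60%, against the same 34.8%). Adam10, which releases Cxcl16 and Cx3cl1 from the membrane, was higher by 1.24 ± 0.08 (adjusted p = 2.38e-05) and the gelatinase Mmp9 by 2.99 ± 0.37 (adjusted p = 0.00042), whereas the proteoglycan Gpc6 differed by -1.32 ± 0.23 (adjusted p = 0.00209).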

How the data were processed

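RNA of sorted mammary populations was hybridised to 10 arrays. Per the submitters' processing notes the authors used RMA, and they deposited its log2 values for 22690 probe sets. The version of RMA, and whether all arrays were normalized together, are not given in the sources used here. RMA evens out the distributions of the arrays, so a change shared by most genes would not show. The values were used as deposited. No detection calls were used, and the number of arrays limits the precision.

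Groups came from the sample titles. Only the 20393 probe sets with 1 gene symbol in the array annotation were kept, and those with several (691) or none (1606) were not. Each of 12394 genes was represented by its probe set with the highest mean over the arrays, and 12370 genes matched a RefSeq identifier. The members had 71 probe sets, and 15 members had more than 1. Another 4 chemokine probe sets with several symbols were left out, and Cxcl3, Ccl19, Ccl21a and Cxcr1 were not analysed here.

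In R 4.3.3, limma 3.58.1 (lmFit, eBayes) fitted the 4 group means on all 10 arrays. Contrasts were tested two-sided, p-values were adjusted by Benjamini and Hochberg's method over every gene tested, and the threshold was 0.05. Errors of differences are moderated standard errors, with 95% confidence intervals where given. The pipeline was tested on simulated data. The members, the gene and marker lists and the ligand-receptor pairs were chosen with earlier results of these data known. The summed level of a marker list is the log2 of the sum of its linear values.

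The genes given with every array's value are, per comparison, the 5 members with the greatest increase and the 5 with the greatest decrease among those that passed, and both partners of the pairs with opposite calls in CAF minus CSC or CAF minus TEC. Other members shown array by array (Ccl8, Cxcl2, Xcl1 and others) were chosen after their values were seen. From lists outside the family, examples among the 4 genes with the smallest adjusted p are named. Alternatives changed the samples fitted, a replicate block, the variance prior, the filter on dim genes, the choice of probe set, the normalization, the centring, array weights, the threshold and the averaging of similar arrays, and left out each array in turn. A fit left with 1 TEC or CSC array takes the spread from the other groups.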

Additional observations from a re-analysis of the deposited data

How the results depend on the processing

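Limits: groups of 2 or 3 arrays, unknown sorting gates, leukocyte markers that differ between all groups and a TEC group of unlike arrays. Between CAF and COF the 18 calls (13 higher, 5 lower) became 31 (21 higher, 10 lower) with array weights, 7 (5 higher, 2 lower) with close arrays averaged and 10 (8 higher, 2 lower) at an adjusted p under 0.01, and 3 were lower without the dimmest 30% of genes. Leaving out 1 array gave 11 to 18 calls, 8 to 13 higher and 2 to 5 lower. Over all genes the CAF minus COF count of 4309 ranged between 1805 and 8632, and without 1 array between 2980 and 5100. Leaving out 1 array gave 34 to 39 member calls in CAF minus CSC (18 to 22 higher, 15 to 20 lower), 40 to 41 in CAF minus TEC (15 to 16 higher, 24 to 26 lower) and 27 to 34 in CSC minus TEC (5 to 7 higher, 22 to 28 lower). With only the CSC and TEC arrays in the fit, 19 members passed in CSC minus TEC (2 higher, 17 lower), against 33, and the all-gene count of 5786 reached 3013 as its lowest value. Ccl8 in CAF minus TEC and Ackr3 in CSC minus TEC, which were not called at 0.00 and -0.80, turned with the TEC array left out: Ccl8 was 0.53 without TEC replicate 2 and -0.53 without TEC replicate 1, and Ackr3 was 0.66 and -2.26. In fits without 1 TEC or CSC array the lone array is assumed to vary like the other groups, and the TEC arrays differed from each other by more than these values in both genes. The cause was not tested for the array weights or the averaging. Calls that held in all settings run were 7 of 18 in CAF minus COF, 29 of 39 in CAF minus CSC, 37 of 42 in CAF minus TEC and 18 of 33 in CSC minus TEC. Arrays with the same replicate number did not deviate together (correlations of -0.08 to 0.13 for CAF with COF arrays and -0.06 for CSC with TEC arrays), and CAF replicate 3 correlated best with COF replicate 2 (0.12). With the replicate number as a block 14, 38, 40 and 32 members passed in these 4 comparisons, although these arrays share only a number. Another quantile normalization or centring shifted the median of all genes by at most 0.08. An array gives no read depth, and weak probe sets such as Ccr3, Ccr4 and Ccr8 limit what can be seen.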
